A study of Mus musculus with 35 samples.

Results

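The genes described here are the Myc family and its binding partners: c-Myc (Myc), Mycn and Mycl1, their common partner Max, and the Max-binding repressors Mxi1 and Mnt. Every probe that the array design names for one of these genes was taken, which gave 10 probes of 6 genes out of 41174 probes with 27962 gene names. The 35 arrays held 30 mouse iPS clones, 2 ES cell arrays (lines EB-3 and RF8) and 1 array each of the 3 primary cell populations from which the clones were made. Clones carried pMX retroviruses for DsRed, Oct3/4, Sox2 and Klf4, either with c-Myc (4F) or without it (3F), and were derived from PαS cells (bone cells sorted as PDGFRα+ Sca-1+ CD45- Ter119-), OP cells (sorted as PDGFRα- Sca-1-) or tail tip fibroblasts (TTF). Each of the 6 combinations of source and factors had 5 clones. All source cells came from Nanog-reporter mice that were 6 weeks old, all clones were picked after puromycin selection through that reporter, and all were grown on SNL feeder cells that carry puromycin resistance, so RNA of feeder cells could be part of a clone's sample. The labels do not say which clones were separate cultures or infections, so p values measure the spread between these clones. In such bulk samples fewer cells of a type and less RNA per cell cannot be told apart.

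Myc proteins bind DNA only as pairs with Max, and the pairs activate genes of growth and metabolism. Mxi1, a member of the Mad family, and Mnt also pair with Max, bind the same E-box sites and recruit Sin3 repressor complexes, so that they compete with Myc. Mycn and Mycl1 (now named Mycl) are close relatives of c-Myc; Mycn is known for its high level in ES cells, and c-Myc is one of the original reprogramming factors.

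Whether a c-Myc signal can come from the vector depends on the position of the probe, because vectors of this kind carry the coding sequence, while the 3′ untranslated region (UTR) is read from the chromosomal gene. The 3 c-Myc probes lay on mouse build mm7 at chr15:62063665-62063724 (open reading frame throughout, called the coding probe here), chr15:62064157-62064216 (holding the stop codon) and chr15:62064256-62064316 (in the 3′ UTR), all on the plus strand. The following stretches of 30 bases of the latter probes are shown because they mark where the coding sequence ends, with the stop codon in capitals.
Myc stop codon: gaacagcttcgaaactctggtgcaTAAact
Myc 3′ UTR: gttccttctgacagaactgatgcgctggaa
Relatives can share bases with a probe, so the coding probe of c-Myc was compared with the second probe of Mycn. Their best ungapped match over 30 bases follows, with matched bases in capitals.
Myc coding: TGGTgtCtGTgGAGAAGAGgCaaaCCcCtg
Mycn second probe: TGGTcaCcGTaGAGAAGAGaCgttCCtCct
They shared 19 of 30 bases in this stretch, and the probes are 60 bases long. The 3′ UTR probe of c-Myc reached 18 of 30 with a probe of another member, so 19 is little more than a probe outside the coding sequence gave. Both Mycn probes lay on the minus strand, at chr12:12999078-12999137 (the probe of highest signal, used as the main Mycn probe) and chr12:13000197-13000256. Mycl1 was measured at chr4:122446951-122447010, Max at chr12:74895981-74896040 (minus strand) and Mnt at chr11:74926987-74927046. Mxi1 had a probe at chr19:53274432-53274491 on the strand of the gene, and another at chr19:53272217-53272276 that reads the opposite strand. That last probe was well above background on 27 of 30 clone arrays, and the other 9 probes on all 30.

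Levels are log2 signals relative to the 75th percentile of the array, so that 1 unit is a doubling, and they are compared between arrays and not between probes. All clones were scanned in 1 session on 8 slides, whereas the ES and primary arrays were scanned in other sessions on other slides. Clones of 1 source with and without c-Myc never shared a slide. Between 56.6% and 65.7% of the probes were well above background on a clone array, and between 63.0% and 71.3% on the others. The 6 ES cell markers were well above background on all clones of 4 groups. In the 4F-OP-iPS and the 4F-TTF-iPS group only 3 of the 6 were so on all clones. Nanog and Sox2 were not on 4F-OP-iPS #1 and #3 and on 4F-TTF-iPS #1. 4F-OP-iPS #2 had both above background but far below the ES mean (-6.85 for Nanog, -5.81 for Sox2), with the lowest Pou5f1 of all clones (-5.29 from the ES mean). The primary cells had 1 of these 6 markers above background. The 3F label was not borne out by c-Myc in 2 clones, as follows.

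The coding probe and the 3′ UTR probe of c-Myc came apart in the clones made with c-Myc. Their difference on an array, minus the same difference on the mean of both ES arrays, is called the transgene excess here. On the arrays of uninfected cells, scanned in other sessions than the clones, it lay between -0.347 and 0.347, below every clone (at least 0.353). This range is thus no background for the excess of clones. In 4F-TTF-iPS #1 to #5 it was 4.97, 4.28, 3.09, 3.86 and 3.70, and in 4F-OP-iPS #1 to #5 it was 8.33, 0.89, 6.82, 2.11 and 6.29. For 4F-PαS-iPS #1 to #5 the values were 1.89, 2.97, 0.98, 0.74 and 1.22. The TTF-derived 4F-clones were thus uniformly high, the OP-derived ones ranged from near the 3F level to the highest values of all, and the PαS-derived ones lay below every TTF-derived one. Among 3F-clones it was 0.66, 0.85, 0.51, 0.42 and 0.44 in 3F-PαS-iPS #1 to #5 and 0.68, 0.51, 0.56, 0.35 and 0.46 in 3F-TTF-iPS #1 to #5. In 3F-OP-iPS #1 to #5 it was 5.70, 0.63, 4.77, 0.45 and 0.35, so the clones labelled 3F-OP-iPS #1 and #3 stood with the high 4F-clones and against their label. The other 13 3F-clones had 0.53 ± 0.14 (SD, n = 13), and 14 of 15 4F-clones lay above the highest of them. Taken from the stop codon probe in place of the coding probe, the excess was -0.06, 1.72, 0.33, 0.03 and 0.42 in 4F-PαS-iPS #1 to #5, and 12 of 15 4F-clones lay above the highest of the 13 (0.153), all but 4F-PαS-iPS #1 and #4 and 4F-OP-iPS #2 (0.139). The clone 4F-PαS-iPS #1 thus had an excess on the coding probe that the stop codon probe did not show. In 4F-PαS-iPS #5 the coding level (-3.71) lay inside the range of 3F-PαS-iPS clones (-3.79 to -3.44). Its 3′ UTR level (-0.90) lay below theirs (-0.56 to 0.17), so its excess went with a low 3′ UTR signal. In 4F-PαS-iPS #3 the coding level (-3.38) lay close to that range, with a 3′ UTR level of -0.34.

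**Figure D1:**
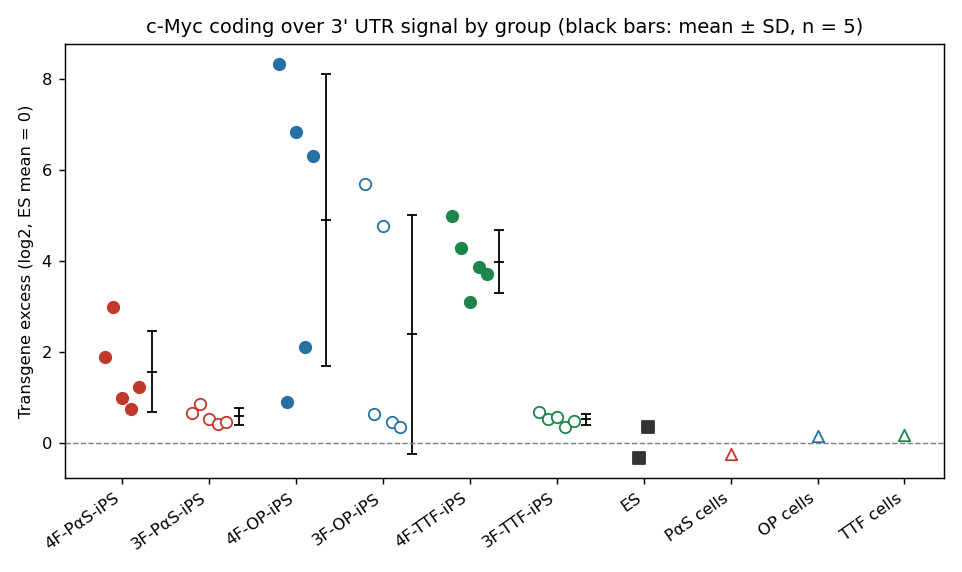
Transgene excess of c-Myc (log2, coding probe minus 3′ UTR probe, relative to the mean of the ES arrays) for each clone by group, with bars for the mean ± SD of the group (n = 5), beside the uninfected ES and primary cells. All 5 4F-TTF-iPS clones lie between 3.09 and 4.97, and the clones labelled 3F-OP-iPS #1 and #3 lie at 5.70 and 4.77, far from the other 3F-clones.

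Averaged over sources, 4F-clones exceeded 3F-clones by 2.32 (permutation test within sources with 100000 resamples, two-sided, p = 0.00176, adjusted p = 0.00704 over 4 differences). In TTF-derived clones the excess was 3.98 ± 0.70 (SD, n = 5) with c-Myc and 0.51 ± 0.12 (SD, n = 5) without it, a difference of 3.47 (exact permutation test, two-sided, p = 0.00794, the smallest that 252 arrangements allow, adjusted p = 0.0159). In PαS-derived clones it was 1.56 ± 0.90 (SD, n = 5) against 0.58 ± 0.18 (SD, n = 5), a difference of 0.98 (exact permutation test, p = 0.0159, adjusted p = 0.0212), but a different background correction (normexp) took this difference to 0.78 (adjusted p = 0.106 by the exact permutation test), the stop codon probe gave 0.58 (adjusted p = 0.0317), and the difference on the coding probe missed the threshold without 3F-PαS-iPS #1, #3, #4 or #5 (exact permutation test, adjusted p = 0.0635 to 0.0741). In OP-derived clones 4.89 ± 3.21 (SD, n = 5) against 2.38 ± 2.63 (SD, n = 5) differed by 2.51, which did not exceed the spread between clones (exact permutation test, p = 0.190). With 4F-TTF-iPS #1 left out as well, it was 0.72 without 4F-OP-iPS #1 and #3 (exact permutation test, adjusted p = 0.607) and 1.82 without #1, #2 and #3 (adjusted p = 0.476). Without the clones labelled 3F-OP-iPS #1 and #3 the OP difference was 4.41 (exact permutation test over 56 arrangements, p = 0.0357), and the average over sources was 2.95 (permutation test, adjusted p = 0.00128). Those clones were left out because of their high excess, the value tested here, so these p values carry no weight. On the single slide where 4F- and 3F-clones lay together, 4F-TTF-iPS #5 had 3.70 and 3F-PαS-iPS #1 to #3 had 0.66, 0.85 and 0.51. Since they differ in source, this is a side by side value and not a test.

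The coding probe itself had the wider spread of the pair. It was 3.40, -2.53, 2.58, -1.48 and 1.55 in 4F-OP-iPS #1 to #5 and 0.78, 0.17, -0.78, -0.37 and 0.59 in 4F-TTF-iPS #1 to #5. For 4F-PαS-iPS #1 to #5 the values were -1.39, -0.70, -3.38, -2.38 and -3.71, and in the 3F-PαS-iPS clones it stayed between -3.79 and -3.44. Thus 4F-PαS-iPS #3 and #5 lay within or close to the 3F range on this probe, and #1, #2 and #4 above it. In the 3F-TTF-iPS clones it lay between -4.14 and -3.06, below every 4F-TTF-iPS clone. In 3F-OP-iPS #1 to #5 it was 1.66, -2.91, 0.59, -4.15 and -3.60. The ES arrays had -2.20 (EB-3) and -2.26 (RF8), so that 13 of 30 clones lay above both ES arrays and 17 below both.

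**Figure D2:**
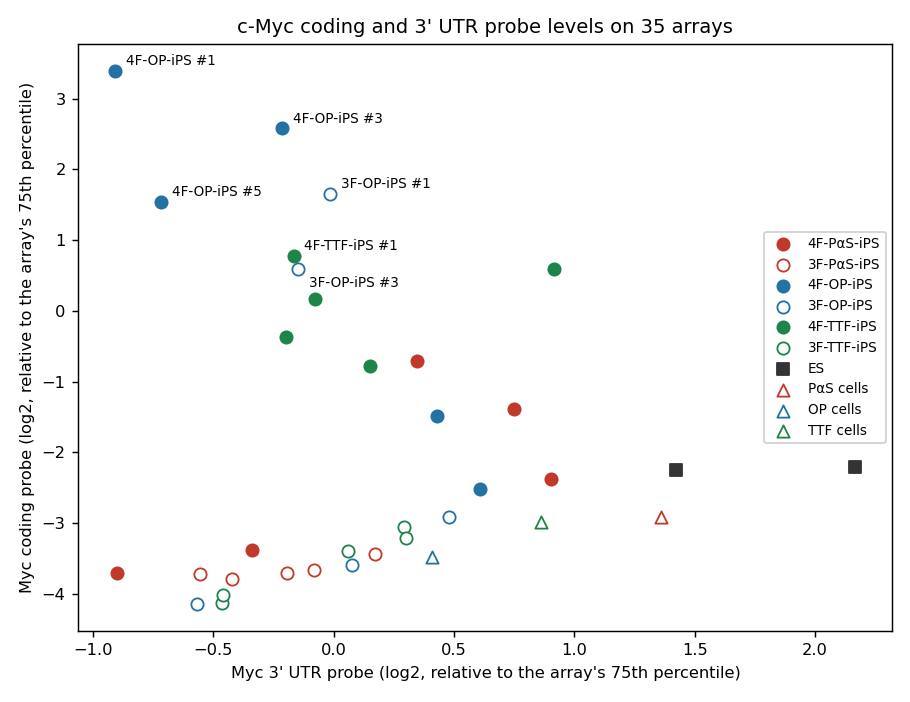
Level of the coding probe of c-Myc against that of its 3′ UTR probe (both log2 relative to the 75th percentile of the array), 1 point per array, by group. The 4F-clones and the clones labelled 3F-OP-iPS #1 and #3 spread along the coding axis from -3.71 to 3.40, while the 3′ UTR level of all clones stays between -0.91 and 0.91.

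In a limma fit over 27633 probes, the coding probe rose by 2.46 (SE 0.56, 5.51-fold) in 4F- over 3F-clones averaged over sources (Benjamini-Hochberg adjusted p = 0.00288), and the stop codon probe rose by 1.93 (SE 0.48, adjusted p = 0.00568). These were 2 of the 10 probes of the family, where 21.2% of all probes passed the same test. Within TTF-derived clones the coding probe rose by 3.65 (SE 0.97, adjusted p = 0.0176) and the stop codon probe by 2.85 (SE 0.84, adjusted p = 0.0301), again 2 of 10 where 10.1% of all probes passed. For both probes the 4F- and 3F-TTF-iPS clones did not overlap, which held for 8.96% of all probes in this direction. Within OP-derived clones 0 of 10 passed limma (8.07% of all probes did, and 2 of 10 had an unadjusted p under 0.05), with 2.38 for the coding probe (adjusted p = 0.121). Without the clones labelled 3F-OP-iPS #1 and #3 the coding probe differed by 4.26 there (limma, adjusted p = 0.00384), and it also passed without 3F-OP-iPS #1, 4F-OP-iPS #2 or 4F-OP-iPS #4 alone (adjusted p = 0.0250, 0.0341 and 0.0496). The clones labelled 3F-OP-iPS #1 and #3 were left out because of this signal, so the adjusted p without them carries no weight. Without 4F-OP-iPS #1 and #3, the clones of highest excess, and 4F-TTF-iPS #1 the coding probe differed by 0.86 (limma, adjusted p = 0.714). Within PαS-derived clones 0 of 10 passed (0.0217% of all probes did, and 2 of 10 had an unadjusted p under 0.05), with 1.35 for the coding probe (limma, adjusted p = 0.483). When the slide was a random block, the difference over sources was 2.53 for the coding probe (adjusted p = 0.0841) and that in TTF-derived clones 3.44 (adjusted p = 0.381), so no call was left with the slide in the fit. Under normexp the coding probe differed by 2.49 (limma, adjusted p = 0.0629) and the stop codon probe by 2.58 (adjusted p = 0.0587) in TTF-derived clones. Without 4F-TTF-iPS #1 the coding probe differed by 3.47 in TTF-derived clones (limma, adjusted p = 0.0505), and the call of the stop codon probe there was lost without 1 of 6 clones (4F-TTF-iPS #1, #2 or #5, 3F-TTF-iPS #3, #4 or #5), with adjusted p up to 0.0796.

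Markers of other cells moved with c-Myc in the TTF-derived clones too. The summed level of the 2 PαS cell markers (Pdgfra and Ly6a, the gene of Sca-1) was 3.16 to 4.65 in 4F-TTF-iPS and 1.25 to 2.48 in 3F-TTF-iPS clones, and that of 4 blood cell markers -0.51 to -0.10 and -1.04 to -0.85, so that neither overlapped, although Ptprc, the gene of CD45, was not well above background on any of these arrays. The fibroblast and feeder markers (5.63 to 7.08 and 6.12 to 7.19), the 5 osteogenic markers (0.55 to 2.57 and 2.28 to 4.20) and the ES cell markers (3.40 to 8.66 and 8.29 to 8.60) overlapped. Among OP-derived clones the PαS cell markers were 4.50, 3.52, 4.60, 2.02 and 4.66 in 4F-OP-iPS #1 to #5 and 4.37, 2.23, 4.78, 0.21 and 1.48 in 3F-OP-iPS #1 to #5, and were thus highest in the 5 clones of highest transgene excess. The blood cell markers there were 0.09, -0.37, 0.67, -0.73 and 0.31 with c-Myc and 1.27, -0.94, -0.09, -1.34 and -1.09 without it, again highest in those 5 clones. Their part in the differences between 4F- and 3F-clones was not tested.

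The 3′ UTR probe, spotted 10 times on each array, followed a separate course. It was 0.75, 0.35, -0.34, 0.90 and -0.90 in 4F-PαS-iPS #1 to #5, -0.91, 0.61, -0.22, 0.43 and -0.72 in 4F-OP-iPS #1 to #5, and -0.17, -0.08, 0.15, -0.20 and 0.91 in 4F-TTF-iPS #1 to #5. In 3F-clones it lay between -0.57 and 0.48, inside the range of the 4F-clones. The difference between 4F- and 3F-clones over sources was 0.14 (SE 0.19, limma, adjusted p = 0.627). Across the 15 4F-clones the coding and 3′ UTR levels had r = -0.29 (permutation p = 0.286) and rho = -0.27 (permutation p = 0.336), and r = -0.01 when the 2 most distant clones were left out. Replicate spots of this probe had an SD of 0.0240 to 0.130 within an array, well below the range between clones. The ES arrays stood at 2.17 (EB-3) and 1.42 (RF8), above all 30 clones.

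Against ES cells, the 3′ UTR probe of c-Myc and the main Mycn probe were lower in every clone and Mxi1 was higher in every clone. The 3′ UTR probe of c-Myc differed from ES cells by -1.83 (SE 0.37, limma, adjusted p = 0.000196), below both ES arrays in 30 of 30 clones. Mycn differed by -2.13 (SE 0.34, adjusted p = 1.28e-05) and Mxi1 by 1.52 (SE 0.30, adjusted p = 0.000146). In this comparison 6 of 10 probes of the family passed, beside 52.4% of all probes. Clones lay wholly above or wholly below the ES arrays on 4 of the 10 probes, beside 24.4% of all probes. The coding probe of c-Myc differed by 0.49 (SE 1.11, adjusted p = 0.730) and the stop codon probe by -0.43 (SE 0.96, adjusted p = 0.727). All clones shared a scan session that held no ES array, so session and group cannot be told apart here. The median difference of all probes from ES cells was -0.11. The summed level of 8 fibroblast and feeder markers also moved with this comparison, at 3.25 and 5.45 on the ES arrays, 5.10 to 8.13 on the clone arrays and 8.01 to 10.1 on the primary arrays. The 2 PαS cell markers summed to 0.21 to 4.78 in clones, beside -5.38 in EB-3 and 0.60 in RF8 cells, and the 4 blood cell markers to -1.68 to 1.27 in clones, beside -2.57 in EB-3 and -1.67 in RF8 cells. Their part in these differences was not tested.

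Mycn, the family member of undifferentiated cells, was 3.80 on the EB-3 and 4.46 on the RF8 array. It was 1.90, 2.42, 1.85, 2.67 and 1.89 in 4F-PαS-iPS #1 to #5 and 2.33, 2.12, 1.91, 2.51 and 2.20 in 3F-PαS-iPS #1 to #5. In 4F-OP-iPS #1 to #5 it was 0.72, 2.85, 1.16, 2.36 and 1.61, so that the highest and the lowest clone of the series lay in this group. It was 2.31, 1.87, 1.42, 1.24 and 1.80 in 3F-OP-iPS #1 to #5, 2.35, 2.29, 2.72, 2.25 and 2.03 in 4F-TTF-iPS #1 to #5, and 2.08, 2.11, 2.16, 1.90 and 1.09 in 3F-TTF-iPS #1 to #5. The 4F- and 3F-clones overlapped in every source. The difference over sources was 0.13 (SE 0.17, limma, adjusted p = 0.618). Every group of clones was lower than ES cells by limma, from -1.80 in 4F-TTF-iPS (SE 0.39, adjusted p = 0.000540) to -2.40 in 3F-OP-iPS (SE 0.39, adjusted p = 2.05e-05). In these comparisons of single groups with ES cells 38.9% (4F-PαS), 49.7% (3F-PαS), 46.6% (4F-OP), 47.8% (3F-OP), 48.4% (4F-TTF) and 49.1% (3F-TTF) of all probes passed. The second Mycn probe differed from ES cells by -1.05 (SE 0.36, adjusted p = 0.0173), below both ES arrays in 28 of 30 clones, but by group it missed the threshold in 4F-PαS-iPS (-0.96, adjusted p = 0.0690), 3F-PαS-iPS (-0.96, adjusted p = 0.0559) and 4F-TTF-iPS clones (-0.46, limma, adjusted p = 0.368). In TTF-derived clones that probe differed by 0.87 between 4F and 3F (SE 0.31, adjusted p = 0.0758), while the main probe differed by 0.46 (adjusted p = 0.338).

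Mycl1, the L-Myc gene, was -2.35 on the EB-3 and -0.48 on the RF8 array. It was -2.49, -2.28, -1.24, -2.25 and -1.58 in 4F-PαS-iPS #1 to #5, -1.92, -2.38, -4.74, -1.74 and -2.59 in 4F-OP-iPS #1 to #5 and -3.33, -2.86, -2.12, -2.58 and -1.67 in 4F-TTF-iPS #1 to #5. In 3F-clones it ranged from -2.90 to -1.38 for PαS, -3.69 to -1.41 for OP and -2.22 to -0.79 for TTF. The lowest 3F value, -3.69, was that of the clone labelled 3F-OP-iPS #1, which had the highest transgene excess of the 3F-clones. The 4F- and 3F-groups overlapped in all sources, and the difference over sources was -0.41 (SE 0.29, limma, adjusted p = 0.321). In OP-derived clones it was -0.93 without the clones labelled 3F-OP-iPS #1 and #3 (limma, adjusted p = 0.280).

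Max, without which Myc proteins do not bind DNA, had the smallest range of the members among the clones. In PαS-derived clones it lay between 3.48 and 4.09 with c-Myc and between 3.55 and 3.88 without it, in OP-derived clones between 3.59 and 4.14 and between 3.19 and 3.97, and in TTF-derived clones between 3.49 and 3.90 and between 3.20 and 3.59. The ranges overlapped in each source. By limma the difference between 4F- and 3F-clones was 0.09 in PαS- (SE 0.23, adjusted p = 0.869), 0.24 in OP- (SE 0.23, adjusted p = 0.578, and 0.45 without the clones labelled 3F-OP-iPS #1 and #3, adjusted p = 0.290) and 0.28 in TTF-derived clones (SE 0.23, adjusted p = 0.481). Over sources it was 0.20 (SE 0.13, adjusted p = 0.295). The ES arrays differed by 2.09 on this probe (4.01 for EB-3, 1.91 for RF8). Thus, although the clones passed the test as higher than the ES mean (0.73, SE 0.27, limma, adjusted p = 0.0249), they differed by -0.32 from EB-3 alone and by 1.78 from RF8 alone, and no direction against ES cells can be given.

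Mxi1, a repressor that takes the place of Myc on Max, was the partner that varied most between groups. It was 1.22, 1.83, 1.70, 0.96 and 1.77 in 4F-PαS-iPS #1 to #5 and 2.02, 2.42, 2.71, 2.80 and 2.71 in 3F-PαS-iPS #1 to #5. These groups did not overlap, which was so for 1.31% of all probes in this direction, but the difference of -1.04 (SE 0.26) did not pass limma (adjusted p = 0.125), and no slide held both groups. Without 4F-PαS-iPS #3 it passed (-1.09, limma, adjusted p = 0.0342), whereas without 4F-PαS-iPS #1 and #4, the only arrays of their slide, the difference was -0.77 (limma, adjusted p = 0.908). The clones of highest Mxi1, 3F-PαS-iPS #3 to #5, had the lowest Sox2 of the PαS-derived clones (-3.367, -3.239 and -2.898 from the ES mean). They also had the lowest Nanog (-2.36, -2.78 and -2.21). In 4F-PαS-iPS clones Sox2 lay between -1.302 and -0.546. That of 3F-PαS-iPS #1 (-1.005) lay within this range, with Mxi1 above every 4F-PαS-iPS clone. The part of Sox2 and Nanog in the Mxi1 difference was not tested. In OP-derived clones the mean was higher with c-Myc, with 2.49, 2.69, 2.55, 1.37 and 2.15 in 4F-OP-iPS #1 to #5 and 2.46, 2.11, 1.57, 1.26 and 1.65 in 3F-OP-iPS #1 to #5, a difference of 0.44 (SE 0.26, limma, adjusted p = 0.308), which became -0.05 without 4F-OP-iPS #1, #2 and #3 and 4F-TTF-iPS #1 (adjusted p = 0.977). In TTF-derived clones it was 2.48, 2.41, 2.25, 2.16 and 1.24 with c-Myc and 2.29, 2.09, 1.64, 1.84 and 1.79 without it, a difference of 0.18 (SE 0.26, adjusted p = 0.718). The groups overlapped in these 2 sources. The 4F minus 3F difference of Mxi1 differed between OP- and PαS-derived clones by 1.48 (SE 0.37, limma interaction term, adjusted p = 0.0536) and between TTF- and PαS-derived clones by 1.21 (SE 0.37, adjusted p = 0.0899). Neither passed, beside 0.691% and 0.615% of all probes, and between TTF- and OP-derived clones 0% of all probes passed. None of the 10 probes of the family passed an interaction term, and 2, 2 and 1 of them had an unadjusted p under 0.05 in the limma terms OP against PαS, TTF against PαS and TTF against OP.

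The higher Mxi1 level of clones than of ES cells held in each group. The ES arrays stood at 0.60 (EB-3) and 0.40 (RF8), below all 30 clones. The difference ran from 1.00 in 4F-PαS-iPS (SE 0.34, limma, adjusted p = 0.0232) to 2.03 in 3F-PαS-iPS clones (SE 0.34, adjusted p = 2.80e-05). The opposite-strand probe was higher by 1.61 (SE 0.34, adjusted p = 0.000289) and lay near background, with a difference of 0.18 under normexp (adjusted p = 0.757). The primary cells had Mxi1 at 0.27 (PαS), 0.76 (OP) and 0.14 (TTF), below all 30 clones.

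Mnt, a repressor that pairs with Max in dividing and resting cells alike, was 4.34, 2.79, 2.85, 4.13 and 2.96 in 4F-PαS-iPS #1 to #5. The other 25 clones lay between 2.51 and 3.49, so that 4F-PαS-iPS #1 and #4, which shared a slide with no other array, were the 2 highest. The difference between 4F- and 3F-clones was 0.43 in PαS- (SE 0.27, limma, adjusted p = 0.409, and -0.11 without 4F-PαS-iPS #1 and #4, adjusted p = 0.967), 0.12 in OP- (adjusted p = 0.831, and 0.29 without the clones labelled 3F-OP-iPS #1 and #3, adjusted p = 0.609) and 0.07 in TTF-derived clones (adjusted p = 0.895). The ES arrays had 3.80 (EB-3) and 2.39 (RF8), and the clones differed from their mean by -0.01 (SE 0.31, adjusted p = 0.975).

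**Figure D3:**
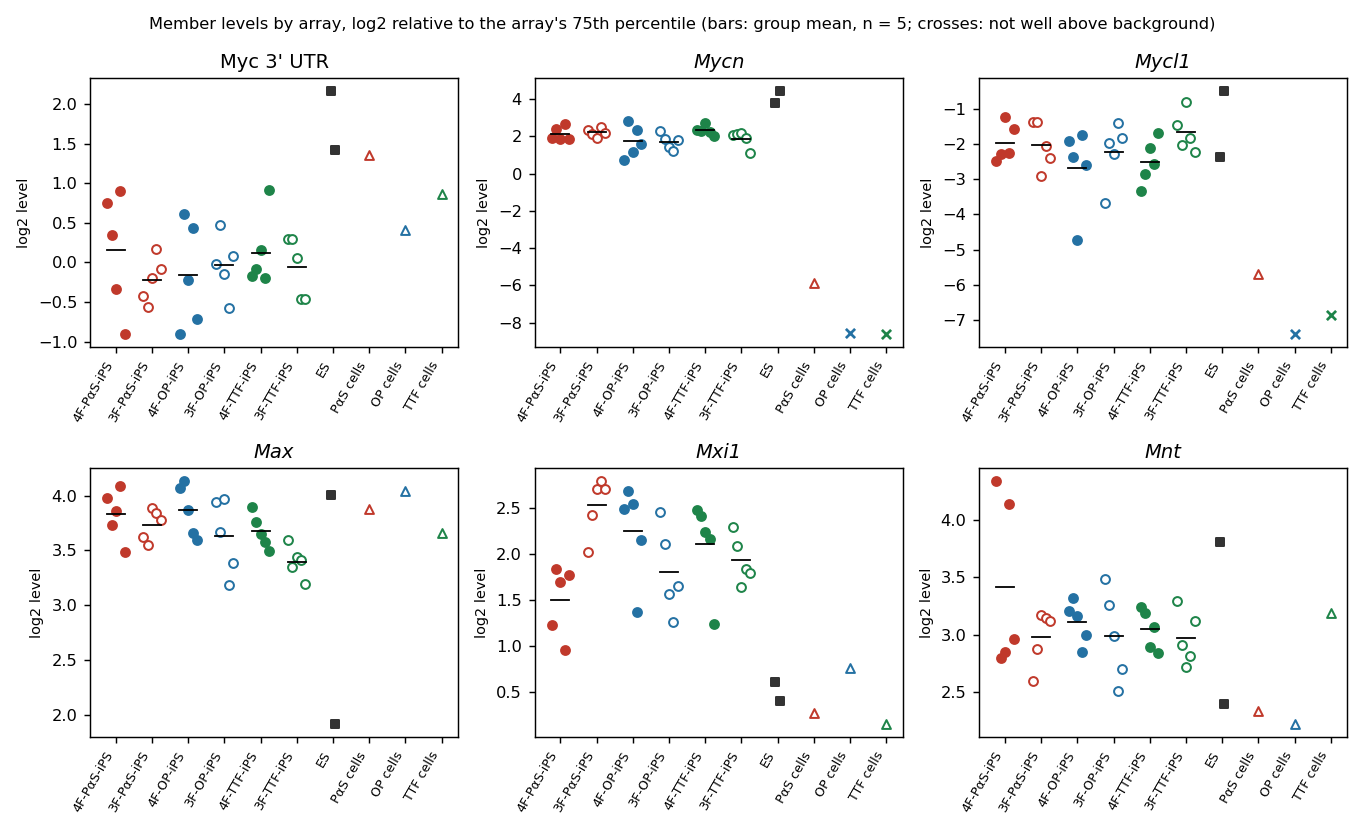
Level of the main probe of Mycn, Mycl1, Max, Mxi1 and Mnt, with the 3′ UTR probe of c-Myc (log2 relative to the 75th percentile of the array), 1 point per array, with bars for group means of clones and crosses for signals not well above background. Mycn and the 3′ UTR probe lie below both ES arrays in all 30 clones, and Mxi1 above both.

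**Figure D4:**
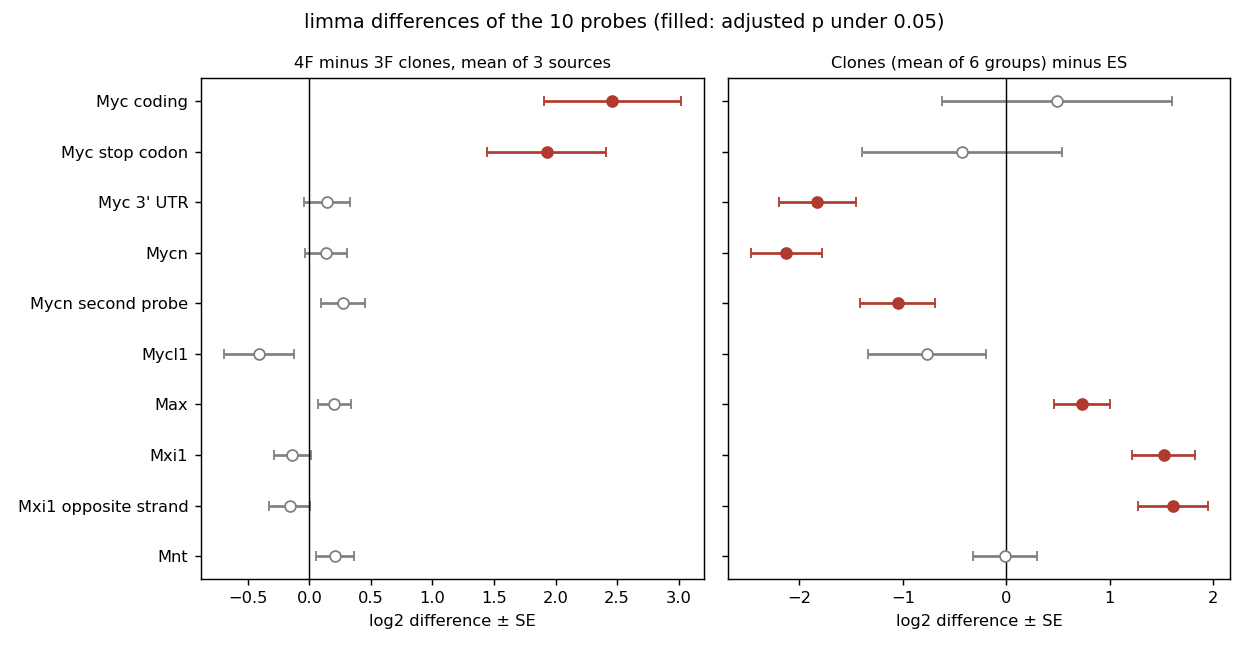
Differences between groups for the 10 probes (log2, limma estimate with SE) for 4F against 3F and for clones against ES cells. Of the probes compared between 4F- and 3F-clones over sources, only the coding and stop codon probes of c-Myc passed the test, at 2.46 and 1.93.

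Whether the relatives and partners followed the transgene was asked across clones. The PαS and blood cell markers given above for the OP-derived clones moved with the excess too, and their part in these relations was not tested. The 15 4F-clones spread from 0.74 to 8.33 in excess, and 6 probes above background in all clones were compared with it. Mycn fell with the excess (r = -0.71, permutation p = 0.00303, adjusted p = 0.0182 over 6 probes; rho = -0.53, permutation p = 0.0442, adjusted p = 0.110). When the 2 clones most distant from the median excess were left out r was -0.31 (permutation p = 0.294), so the relation rests on those clones. It also missed the threshold without 4F-OP-iPS #1 (r = -0.54, permutation adjusted p = 0.132) or #3 (r = -0.65, adjusted p = 0.0778). Both 4F-OP-iPS #1 (excess 8.33, Mycn 0.72) and 4F-OP-iPS #3 (excess 6.82, Mycn 1.16) lacked Nanog and Sox2 above background. Leaving out these clones and 4F-TTF-iPS #1, the third such clone, r was -0.37 (permutation p = 0.230, adjusted p = 0.356, n = 12), and without 4F-OP-iPS #2 as well, the clone of highest Mycn and of low Nanog and Sox2, it was -0.26 (permutation adjusted p = 0.539, n = 11). With both values centred on the slide mean it was -0.87 (permutation adjusted p = 0.00774, n = 14), with rho = -0.77 (adjusted p = 0.0822). That value includes 4F-OP-iPS #1 and #2, which shared a slide, and #3, and none within slides is given without them. The second Mycn probe had r = -0.56 (permutation adjusted p = 0.0650), -0.91 within slides (adjusted p = 0.00807; rho = -0.79, adjusted p = 0.0822) and -0.06 without the farthest clones, and it passed without 4F-PαS-iPS #1 (-0.63, adjusted p = 0.0470) or 4F-TTF-iPS #1 (-0.64, adjusted p = 0.0369).

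Neither the partners nor Mycl1 passed in the full set of 4F-clones. Mxi1 had r = 0.55 (permutation p = 0.0325, adjusted p = 0.0650; rho = 0.54, adjusted p = 0.110), Max had r = -0.02 (adjusted p = 0.934; rho = -0.16) and Mnt had r = -0.21 (adjusted p = 0.546; rho = -0.03). Both turned within slides, Max to r = 0.36 (permutation adjusted p = 0.469) and Mnt to r = 0.55 (adjusted p = 0.134). Max had r = -0.45 without the 2 farthest clones and r = -0.57 without 4F-OP-iPS #1 and #3 and 4F-TTF-iPS #1 (permutation p = 0.0535, adjusted p = 0.300). Mycl1 had r = -0.50 (permutation adjusted p = 0.0835; rho = -0.51, adjusted p = 0.110). Leaving out 1 clone brought 2 of these past the threshold, Mxi1 without 4F-OP-iPS #2, low in Nanog, Sox2 and Pou5f1 (r = 0.75, permutation adjusted p = 0.0137), and Mycl1 without 4F-OP-iPS #1 (r = -0.73, adjusted p = 0.0119). Mxi1 had r = 0.41 without the 2 farthest clones (permutation adjusted p = 0.315) and 0.33 without 4F-OP-iPS #1 and #3 and 4F-TTF-iPS #1 (adjusted p = 0.356). Without 4F-OP-iPS #2 as well it was 0.62 (permutation adjusted p = 0.177). Over all 30 clones Mycl1 fell with the excess (r = -0.58, permutation adjusted p = 0.00630; rho = -0.44, adjusted p = 0.0467), also by r without the 2 farthest clones (r = -0.61, adjusted p = 0.00444) and within slides (r = -0.50, adjusted p = 0.0469). By rho it missed the threshold in both (-0.44, adjusted p = 0.0643, and -0.33, adjusted p = 0.192). Max had r = 0.40 over the 30 clones (permutation adjusted p = 0.0864; rho = 0.47, adjusted p = 0.0467), Mycn had -0.34 (adjusted p = 0.140), Mxi1 0.22 (adjusted p = 0.373) and Mnt 0.12 (adjusted p = 0.579). Within the 10 PαS-derived and the 10 OP-derived clones no probe passed, with permutation adjusted p of at least 0.182 for r and rho. In the OP-derived clones Mycl1 had r = -0.56 and Mycn r = -0.52, and in the PαS-derived clones r = -0.12 and -0.04. Mxi1 had opposite signs in these sources, with r = 0.49 (rho = 0.54) in the OP-derived and r = -0.45 (rho = -0.70, permutation p = 0.0303, adjusted p = 0.182) in the PαS-derived clones. The TTF-derived clones fell into separate clusters by excess, so no r was computed for them. Across the 13 3F-clones without the transgene signal, as background, no probe passed (permutation adjusted p of at least 0.422 for r and rho), and Mycn had r = 0.27 and Mycl1 r = 0.40.

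**Figure D5:**
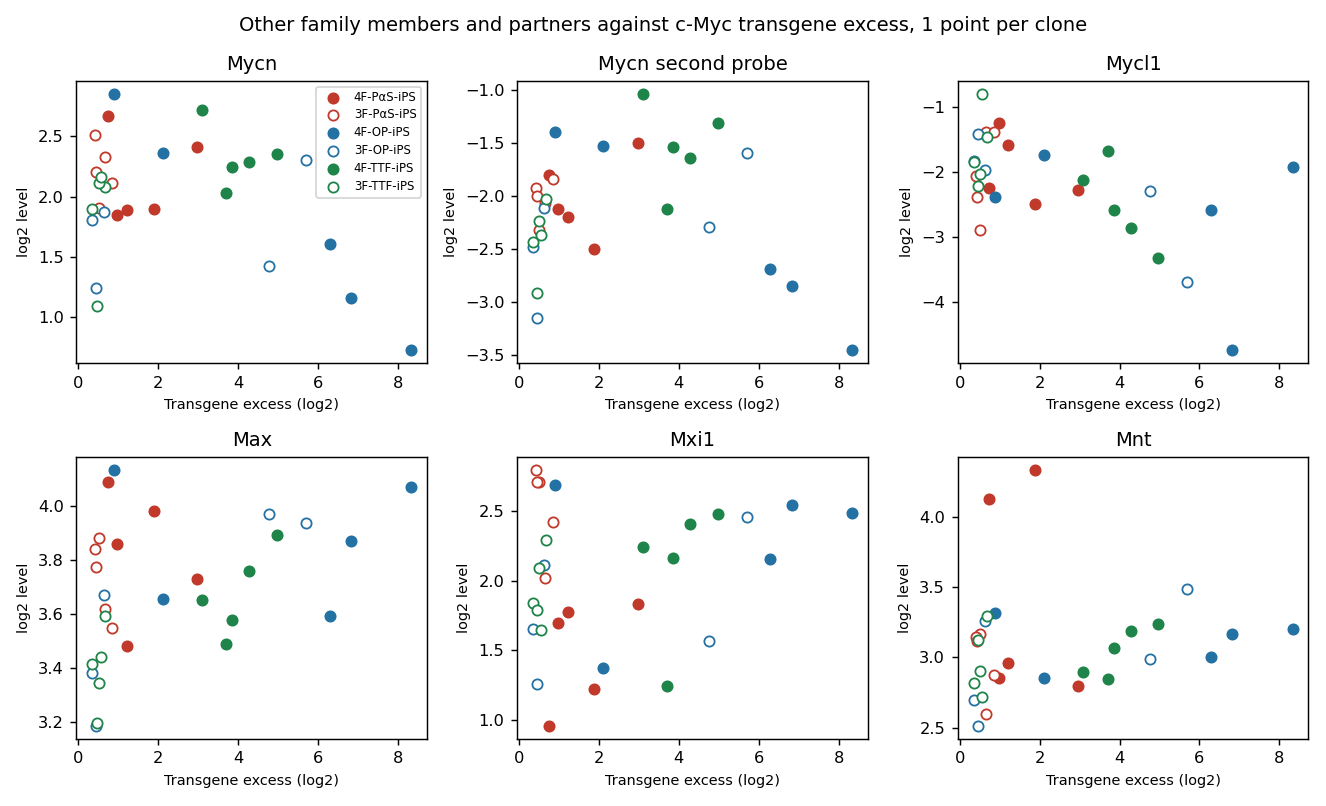
Level of each relative and partner of c-Myc (log2 relative to the 75th percentile of the array) against transgene excess (log2), 1 point per clone, by group. Mycn is lowest in 4F-OP-iPS #1 (0.72), the clone of highest excess (8.33), and Max stays between 3.19 and 4.14 along the whole axis.

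Between sources of clones, with 4F and 3F weighted equally, the coding probe of c-Myc was lower in PαS- than in OP-derived clones, with a difference of -2.50 (SE 0.68, limma, adjusted p = 0.0388), and the stop codon probe likewise with -2.34 (SE 0.59, adjusted p = 0.0281), which were 2 of 10 probes beside 3.70% of all. The call for the coding probe was lost when 1 clone was left out in 13 of 20 cases, all except 4F-PαS-iPS #2, 3F-PαS-iPS #1, 4F-OP-iPS #2 and #4 and 3F-OP-iPS #2, #4 and #5 (limma, adjusted p up to 0.0940). That for the stop codon probe was lost in 7 of 20 cases (without 4F-PαS-iPS #5, 3F-PαS-iPS #3 or #5, 4F-OP-iPS #1 or #3, or 3F-OP-iPS #1 or #3, adjusted p up to 0.0703). Without those labelled 3F-OP-iPS #1 and #3 the coding probe differed by -1.56 (limma, adjusted p = 0.196) and the stop codon probe by -1.57 (adjusted p = 0.143), and the coding probe differed without 4F-OP-iPS #1, #3 and 4F-TTF-iPS #1 by -1.74 (adjusted p = 0.273), and without 4F-OP-iPS #2 as well by -2.16 (adjusted p = 0.0864). With the slide as a fixed block it was -2.94 (adjusted p = 0.122). Mycn differed between the same sources by 0.45 (SE 0.21, limma, adjusted p = 0.218), and by 0.58 without 4F-OP-iPS #2 (adjusted p = 0.0408). Between PαS- and TTF-derived clones 0 of 10 probes passed (1.30% of all, and 1 of 10 at an unadjusted p under 0.05), and between OP- and TTF-derived clones 0 of 10 (0.0290% of all, and 0 of 10 at an unadjusted p under 0.05 in limma). Max, Mxi1 and Mnt differed by at most 0.24 in all 3 comparisons.

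The primary cells had 1 array each, so their values carry no test. The 4 blood cell markers summed to 6.396 on the TTF array, 0.305 on the PαS array and 0.1996 on the OP array. The TTF sum lay above that of every clone (at most 1.27). Ptprc, the gene of CD45, was well above background on the TTF and PαS arrays and not on the OP array. The part of blood cells in the differences between primary cells was not tested. Chromosomal c-Myc, read by the 3′ UTR probe, was 1.36 in PαS, 0.41 in OP and 0.86 in TTF cells, beside 2.17 and 1.42 in the ES lines. PαS cells differed by -0.81 from EB-3, which lay on the same slide, and by -0.06 from RF8, which was scanned in another session on another slide. They lay above all 30 clones. On the coding probe the primary cells had -2.91, -3.48 and -2.99. Mycn was detected in PαS cells by the main probe at -5.89, a difference of -10.02 from the ES mean, while the second probe was not well above background there (at least 69.9-fold lower than the ES mean). The main probe was not well above background in OP cells (at least 1566-fold lower than the ES mean) and TTF cells (at least 1723-fold lower). Mycl1 was -5.68 in PαS cells, and in OP and TTF cells, where it was not well above background, at least 33.4-fold and at least 36.8-fold lower than the ES mean. In such bounds a dim signal was replaced by the dimmest signal well above background on its array. Some signals brighter than that were not well above background, such as the opposite-strand Mxi1 probe on the TTF array (-6.59), so these bounds are approximate. All 30 clones were above all 3 primary arrays on Mycn and Mycl1. Max was 3.88, 4.04 and 3.66, within the range of the clones, and Mnt was 2.33, 2.22 and 3.18 in PαS, OP and TTF cells.

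Other genes of the Myc network were counted from a list of 44 genes, of which 42 were tested by their brightest probe. Between 4F- and 3F-clones over sources, 14 rose and 3 fell by limma, where 9.88% of all probes rose and 11.3% fell, with a median difference of 0.18 beside -0.03 over all probes. Of 13 textbook targets 5 rose and 0 fell (median 0.19), among them Ldha, which makes lactate (0.71, SE 0.10, adjusted p = 6.87e-05), and Nme1, a nucleoside diphosphate kinase (0.92, SE 0.17, adjusted p = 0.000641). Of the 8 tested relatives of Max and Mad 3 rose and 2 fell (median 0.11), among them the Max-binding repressor Mxd3 (0.74, SE 0.14, adjusted p = 0.000864). Of 14 coactivators and repressors 3 rose and 0 fell (median 0.14), and of 7 turnover factors, which act on Myc protein, 3 rose and 1 fell (median 0.18). With the slide as a random block 4 of the 42 rose and 0 fell. Under normexp 8 rose and 4 fell. Without 4F-OP-iPS #1 and #3 and 4F-TTF-iPS #1, 11 rose and 3 fell, and without the clones labelled 3F-OP-iPS #1 and #3, 12 rose and 4 fell.

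By source, 0 of 42 network genes passed limma in PαS-derived clones (0.0217% of all probes did), and 13 had an unadjusted p under 0.05. In OP-derived clones 2 rose and 2 fell (3.25% and 4.82% of all probes). In TTF-derived clones, whose PαS and blood cell markers did not overlap between 4F and 3F, 7 rose and 3 fell (4.35% and 5.74% of all probes). There 0 genes passed with the slide as a random block, and 3 rose and 1 fell without 4F-OP-iPS #1 and #3 and 4F-TTF-iPS #1. Quantile normalization turned the balance over all probes, from 899 higher and 1331 lower to 1183 and 971 in OP-derived clones, from 1203 and 1586 to 1738 and 1472 in TTF-derived clones, and from 2731 and 3125 to 3369 and 2782 over sources (1468 and 1228 under normexp). Ldha differed by 0.55 in PαS-derived clones (SE 0.18, adjusted p = 0.154) and rose by 0.85 in OP- (SE 0.18, adjusted p = 0.00598) and 0.72 in TTF-derived clones (SE 0.18, adjusted p = 0.0128). In OP-derived clones the next smallest adjusted p were those of Mlxipl, a glucose-responsive factor that pairs with the Max-like protein Mlx (-2.65, SE 0.61, limma, adjusted p = 0.0105), and Mxd3 (0.92, adjusted p = 0.0239). Mlxipl was well above background on 4 of 5 4F-OP-iPS arrays, so its difference rests in part on a dim signal. In TTF-derived clones Mxd3 (1.17, SE 0.25, adjusted p = 0.00470) and the Mad family repressor Mxd1 (1.53, SE 0.38, adjusted p = 0.0121) came before Ldha. In PαS-derived clones the nucleolar genes Npm1 and Ncl and Shmt2, a serine hydroxymethyltransferase, came first and did not pass (0.64, 0.59 and 1.20, adjusted p = 0.127, 0.139 and 0.143). When the 4F minus 3F difference was compared between sources, 0 of 42 passed in each of 3 limma terms, and 5, 7 and 0 had an unadjusted p under 0.05. Against ES cells 6 were higher and 20 lower (23.6% and 28.8% of all probes, median -0.54 beside -0.11 over all probes). Those with the smallest adjusted p were higher in clones: the cell cycle inhibitor Cdkn1a, which Myc represses (2.82, adjusted p = 1.24e-07), Bin1, which binds Myc (1.75, adjusted p = 7.53e-07), and the Mad family repressor Mxd4 (2.62, adjusted p = 8.23e-07). Between PαS- and OP-derived clones 2 of 42 passed limma (3.70% of all probes did), and between PαS- and TTF-derived clones 1 of 42 (1.30%), so both counts were near the share of all probes. Sin3b, part of the Sin3 complex that Mad proteins and Mnt recruit, was higher in PαS- than in OP- (0.60, limma, adjusted p = 0.0294) and in TTF-derived clones (0.77, adjusted p = 0.0185). Cdkn1a differed by -0.71 between PαS- and OP-derived clones (limma, adjusted p = 0.0448). Between OP- and TTF-derived clones 0 of 42 passed limma (0.0290% of all probes did), and 3 had an unadjusted p under 0.05.

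The genes whose levels over the 30 clones were most like those of a member, among 14987 named genes, are given as a description, since the clones share groups and slides. The coding probe of c-Myc was followed most closely by Slc38a5 (r = 0.948), Abi3 (r = 0.943) and 1700028J19Rik (r = 0.940). The 3′ UTR probe was most like Ube2q (r = 0.801), Akr1b8 (r = 0.797) and Pols (r = 0.786), with no gene in common with the coding probe. Mycn was most like Lgr4 (r = 0.820), 2810485I05Rik (r = 0.753) and 4833439L19Rik (r = 0.752), and Mycl1 like Ptpro (r = 0.864), Tspan13 (r = 0.858) and Sept3 (r = 0.853). For Max the closest were Pan3 (r = 0.847), Rfwd2 (r = 0.787) and Arrdc3 (r = 0.784), for Mxi1 Arhgef5 (r = 0.918), Plxnb2 (r = 0.912) and Rsn (r = 0.892), and for Mnt Bri3 (r = 0.860), Rragc (r = 0.856) and Egln2 (r = 0.855). No gene was among the closest 3 of more than 1 member.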

How the data were processed

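RNA of 35 samples was hybridized to 1-colour (Cy3) Agilent arrays. The deposited scanner files hold intensity values from which the scanner software had subtracted the background, without scaling between arrays, and the authors' table of log2 values, made in GeneSpring GX, is centred on the median of each probe. Control spots and 54 to 152 spots per array with outlier flags were left out, replicate spots were averaged, and each log2 intensity was reduced by the 75th percentile of its array. These values correlated at 0.99997 or more with the authors' values. The 6 genes, the lists and the rule for named genes (all member probes, the 3 network genes of smallest adjusted p per comparison, the 3 most alike genes per member) were chosen with earlier results of these data known, and Sin3b was added in the comparison of PαS- with OP- and TTF-derived clones after its values were seen. Differences were tested with limma 3.58.1 (R 4.3.3) in 1 fit of 7 groups over 27633 probes that all arrays of 1 or more groups held well above background, with Benjamini-Hochberg adjustment at 0.05. The fit was tested on simulated data. Transgene excess was compared by permutation tests, two-sided, in Python 3.11.15 with numpy 2.4.6, scipy 1.17.1 and pandas 2.3.3, and figures used matplotlib 3.10.9. Alternatives were other background corrections and normalizations, the authors' table, no filter, slide or clone number as a block, each ES array alone and each clone left out. Leaving out clones that went against labels, were low in or lacked Nanog and Sox2 or shared a slide, and normexp with outlying backgrounds replaced, were added after seeing the data. The number of arrays limits the precision.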

Additional observations from a re-analysis of the deposited data

Results flagged for a closer look

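Of 66 groups of 5 clones and probes examined, 3 held a clone far from its group, where chance gives about 1 in 20. Mycn was lowest in 3F-TTF-iPS #5 at 1.09, with the next clone of its group at 1.90. Mycl1 was lowest in 4F-OP-iPS #3 at -4.74, with the next clone at -2.59, and this clone lacked Nanog and Sox2 above background. Mxi1 was lowest in 4F-TTF-iPS #5 at 1.24, with the next clone at 2.16. That clone lay on a slide with 3F-PαS-iPS clones, apart from the other 4F-TTF-iPS clones, and the part of the slide was not tested.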

How the results depend on the processing

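The 2 calls of c-Myc between 4F and 3F over sources kept their direction under all alternatives, and lost the call only with the slide as a random block (0 probes of the family called, beside 2). In other comparisons the count of called probes moved as follows. PαS 4F against 3F gave 1 under normexp (0 before), OP gave 2 without the clones labelled 3F-OP-iPS #1 and #3, and TTF gave 0 under normexp and 0 with the slide as a random block. PαS against OP gave 1 under normexp, without the filter and with the slide as a random block, and 0 with the slide as a fixed block, without the clones labelled 3F-OP-iPS #1 and #3, without 4F-PαS-iPS #1 and #4, or without 4F-OP-iPS #1, #3 and 4F-TTF-iPS #1, with or without 4F-OP-iPS #2. Clones against ES gave 3 under normexp (6 otherwise). Leaving out 1 clone gave 0 to 2 for PαS, OP and TTF, 2 to 2 over sources, 0 to 3 for PαS against OP and 6 to 6 against ES. Max against EB-3 alone turned to -0.32. Over all probes, 5856 called over sources became 2696 under normexp, 1031 with the slide as a random block and 3687 without 4F-OP-iPS #1, #3 and 4F-TTF-iPS #1. In the same order, 2230 in OP-derived clones became 464, 211 and 235, and 2789 in TTF-derived clones 786, 7 and 1533. In PαS-derived clones 6 became 428 under normexp, and for PαS against OP 1022 became 436 under normexp, 680 without the filter and 521 with the slide as a fixed block. The PαS against OP count fell to 230 without the clones labelled 3F-OP-iPS #1 and #3. It fell to 20 without the clones that had Nanog and Sox2 not above background, and was 686 without 4F-OP-iPS #2 as well. Clones against ES gave 14469 and, under normexp, 8813.

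Transgene excess in PαS-derived clones was 0.78 under normexp and 0.41 under normexp with outlying backgrounds replaced (adjusted p = 0.106 and 0.198, exact permutation), and in OP-derived clones 4.41 without the clones labelled 3F-OP-iPS #1 and #3. The clone numbers paired nothing (16 of 75 same-number pairs correlated over 0.1, median -0.00106). With the number as a replicate block the differences were 0.98 (PαS) and 3.47 (TTF), with adjusted p = 0.0625 in both by exact sign flips, the smallest that 5 pairs allow. Leaving out 1 clone gave 0.63 to 1.19 for PαS, 1.65 to 3.51 for OP, 3.22 to 3.69 for TTF and 2.03 to 2.65 over sources. A comparison within slides could not be run, because 4F- and 3F-clones of 1 source never shared a slide.

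The correlation with excess was, for Max, 0.0673 under normexp, 0.0338 with outlying backgrounds replaced, 0.15 under quantile normalization, 0.36 within slides and 0.40 over 30 clones; for Mnt, 0.55 within slides and 0.12 over 30 clones; for the second Mycn probe, -0.63 with outlying backgrounds replaced and -0.91 within slides; for Mycn, -0.34 over 30 clones, -0.37 without the clones that had Nanog and Sox2 not above background, and -0.26 without 4F-OP-iPS #2 as well; and for Mycl1, -0.58 over 30 clones. Leaving out 1 clone gave -0.30 to 0.13 for Max, -0.29 to -0.04 for Mnt, 0.48 to 0.75 for Mxi1, -0.73 to -0.33 for Mycl1, -0.64 to -0.32 for the second Mycn probe and -0.78 to -0.54 for Mycn. The Mxi1 interaction term between OP and PαS passed in 13 of 42 alternatives (adjusted p from 0.00712 to 0.727, limma). The coding probe of primary cells minus ES was -0.83 (PαS), -0.97 (OP) and -0.72 (TTF) under normexp and -0.26, -0.94 and -0.52 under quantile normalization, against -0.68, -1.25 and -0.76. Causes of these changes were not tested. Signal over background limited the opposite-strand Mxi1 probe and, in primary cells, Mycn and Mycl1.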
